A study of Mus musculus with 2 samples.

Results

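The motor genes of microtubule transport were examined in open chromatin of mouse frontal cortex. They were the autosomal protein-coding genes of GENCODE M21 whose symbols begin with Kif or Klc and a number, or with Dync1, Dync2, Dynll, Dynlrb, Dynlt or Dctn. This rule took 63 of 20807 genes. It left out Kif4 and Dynlt3, which lie on the X chromosome, and it took in Kif1bp, which encodes a protein that binds kinesins and is no motor. The tissue came from male mice of the F1 hybrid strain B6CASTF1/J, aged 14 days, with no treatment named in the labels. There was 1 group of 2 DNase-seq libraries, biological replicates 1 and 2, each from the tissue of 3 males. The labels name separate tissue samples under 1 donor number, and part of the difference between the libraries may therefore be technical. No test between conditions was possible with 1 group, and no p-value is given. Printed sequences are those of the reference strain, and the alleles of the other parent were not analysed here.

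Kinesins and cytoplasmic dynein use ATP to walk along microtubules, most kinesins toward the growing plus end and dynein toward the minus end. In neurons they carry vesicles, mitochondria and RNA along axons and dendrites, and in dividing cells another set of kinesins builds the spindle and closes the cell after division. Dynein works with dynactin, a large adaptor complex, and its light and intermediate chains help to join it to cargo. DNase I cuts DNA where nucleosomes leave it open, so an open promoter appears as a peak of cuts, and a short protected stretch inside a peak, a footprint, may be covered by a protein.

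A promoter was defined as the DNA within 1 kb of an annotated start of the gene, and its height as the deposited signal value of the tallest peak there. The scale of these deposited heights is not stated and may differ by library, and pairs of heights are given with replicate 1 before replicate 2. Replicate 1 held 75753 peaks and replicate 2 held 77035, of which 53623 regions were shared. In bulk tissue, a peak that is open in fewer cells and a peak that is less open per cell cannot be told apart. Of markers chosen for the cell types of cortex, 6 of 7 genes of excitatory neurons and 3 of 3 of GABAergic neurons showed a promoter peak in both libraries, and Slc17a7 showed one in replicate 2 only. A peak in both libraries was found at 0 of 3 astrocyte genes, 2 of which had a peak in 1 library only, and at 1 of 3 microglia genes. The share over all autosomal protein-coding genes was 60.8%. Open regions away from promoters, defined below as distal regions, were found at 3 of 3 astrocyte genes (17 regions) and 3 of 3 microglia genes (11). They were also found at 6 of 7 excitatory genes (15) and 2 of 3 GABAergic genes (3), so the glial genes were not without open regions. Over all autosomal protein-coding genes, 47.4% had a distal region, and the part of gene length in the marker counts was not tested.

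A promoter peak was present in both libraries at 58 of the 63 motor genes (92.1%), against 60.8% of all autosomal protein-coding genes. No motor gene had a peak in 1 library only. Heights ran from 0.621 to 34.6 in replicate 1 and from 0.676 to 26.8 in replicate 2, with medians of 3.71 and 3.53, and the medians over all genes with a peak were 3.09 and 3.03. At 54 of the 58 genes the tallest peaks of both libraries overlapped, and at the other 4 (Kif5a, Klc2, Dync1i1 and Dctn1) they lay at different sites of the gene. The 5 genes without a promoter peak were Kif12, Kif19a, Kif28, Kif2b and Klc3. In the deposited track of cut rates, no base of their promoters was listed below a false discovery rate of 0.05 in either library. All 21 dynein and dynactin genes had a peak in both libraries, as did 34 of 38 Kif genes and 3 of 4 kinesin light chain genes.

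**Figure D1:**
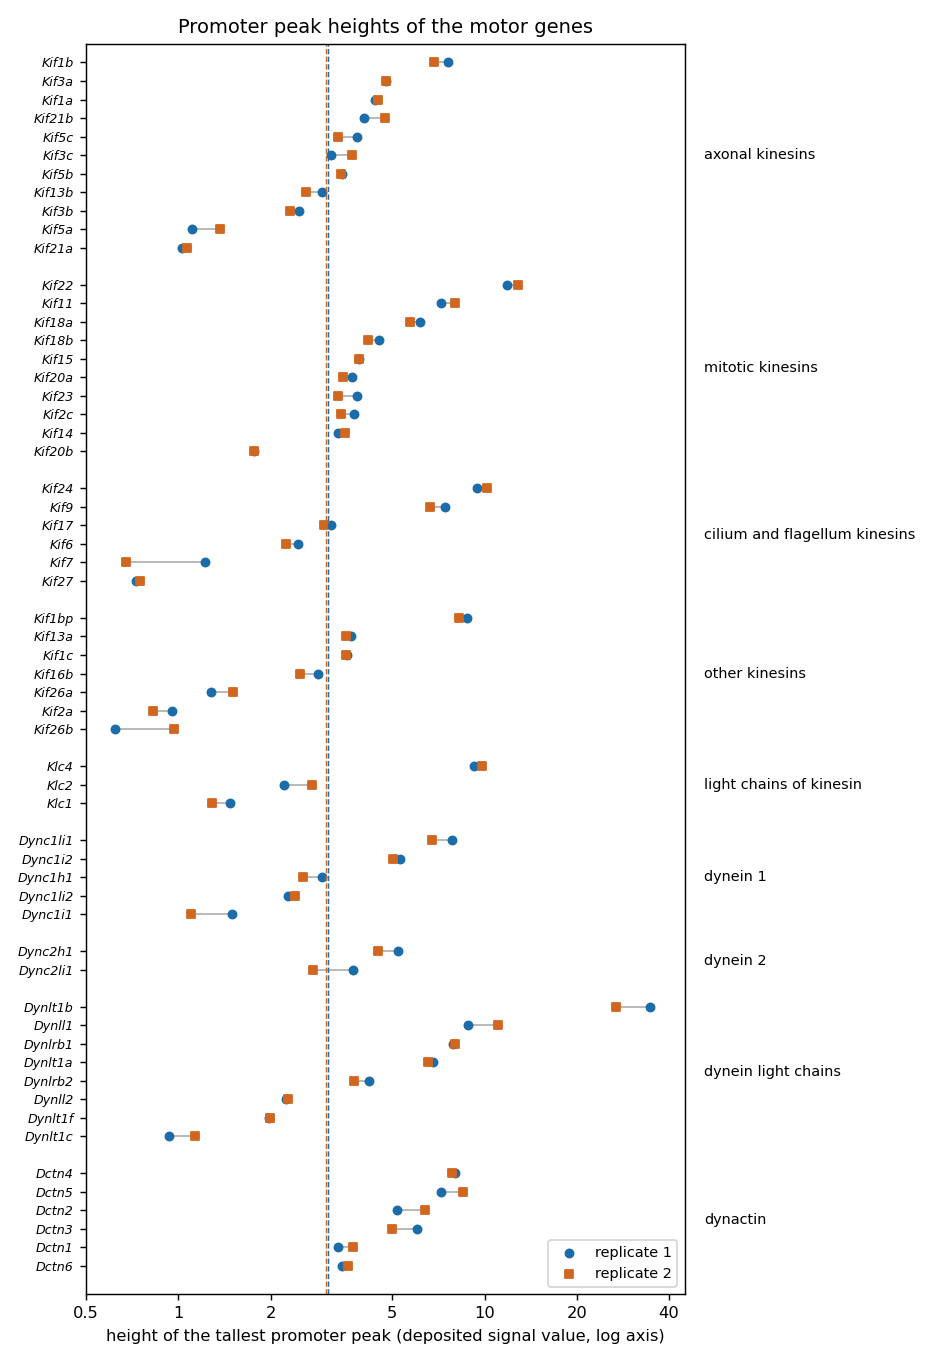
Each row is 1 motor gene with a promoter peak, grouped by role, and the points give the height of its tallest promoter peak in replicate 1 (circles) and replicate 2 (squares) on a log axis. The dashed lines mark the medians over all autosomal genes with a peak, 3.09 and 3.03. Dynlt1b stands highest at 34.6 and 26.8, and the points of most genes lie close together.

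Mitotic and axonal kinesins were compared by 2 lists taken from textbook roles. A peak in each library was present at all 10 mitotic kinesins and at all 11 axonal kinesins. Among genes whose promoter GC content fell within the range of the mitotic list, the share was 71.2% of 8644, and within that of the axonal list 69.3% of 16912. The median height was 3.86 and 3.69 for the mitotic genes and 3.43 and 3.40 for the axonal genes. The mitotic medians include the peaks of Kif15, Kif18a, Kif20a and Kif22, which lay within 1 kb of a start of a neighbouring gene. No axonal peak did, and no alternative left all of these mitotic peaks out. Mitotic heights spanned 1.77 to 11.8 in replicate 1 and 1.76 to 12.9 in replicate 2, and axonal heights spanned 1.03 to 7.6 and 1.07 to 6.86, so the lists overlapped over most of their ranges.

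The proliferation markers chosen beside these lists had a promoter peak in both libraries at 7 of 8 genes, against 60.8% of all genes, with medians of 3.40 and 2.68. Their heights ran from 1.35 to 7.49 in replicate 1 and, over the 7 with a peak, from 1.43 to 7.92 in replicate 2. Aurkb, a kinase of the spindle, had a peak of 1.35 in replicate 1 and none in replicate 2. Cenpf (7.49 and 7.92) and Top2a (5.52 and 6.17) were the tallest, and Mki67, the gene of the Ki-67 antigen, was at 1.80 and 1.97. The part of dividing cells in the mitotic heights was not tested.

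Among the spindle motors, Kif11, which pushes the spindle poles apart, had heights of 7.22 and 8.02, a mean of 7.62 ± 0.559 (SD, n = 2). Kif18a, which damps the movements of aligned chromosomes, was at 6.15 and 5.71, and Kif18b, which acts on astral microtubules, at 4.51 and 4.16. Kif15, a further spindle motor, was at 3.89 in both libraries. These 4 genes were above the median of all genes in each library.

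Kif2c, which takes microtubules apart at centromeres, was at 3.74 and 3.40, close to Kif14 at 3.32 and 3.49. The motors of the central spindle and of cytokinesis stood in the same range, Kif23 at 3.83 and 3.31 and Kif20a at 3.70 and 3.46. Kif20b, also a motor of cytokinesis, was the lowest of the list at 1.77 and 1.76, below the median of all genes. The gaps among Kif2c, Kif14, Kif23 and Kif20a were no larger than the gap between libraries of single genes, so these 4 are not ordered.

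Kif22, a motor that binds chromosome arms, had the tallest peak of the list at 11.8 and 12.9 (12.3 ± 0.774, SD, n = 2). That peak, at chr7:127027161-127027440 in mm10, is not at the 5′ end of the gene. Its middle lies 806 bp in replicate 1 and 816 bp in replicate 2 from the nearest annotated Kif22 start, beyond the 3′ end of the gene, and it falls within 1 kb of a start site of Maz, which encodes a zinc finger factor. At the annotated 5′ end of Kif22 the peak was 2.42 and 1.95 high. Other mitotic promoters were also shared with a neighbour: Kif15 with 1110059G10Rik, Kif18a with Mettl15 and Kif20a with Brd8. A height at such a promoter belongs to the DNA between both genes and cannot be given to either.

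Among the axonal motors, Kif1b, which carries mitochondria and vesicles of synaptic precursors, was the tallest at 7.6 and 6.86 (7.23 ± 0.517, SD, n = 2). Kif1a, a carrier of synaptic vesicle precursors, was at 4.39 and 4.50. Kif21b stood near it at 4.05 and 4.73, whereas its relative Kif21a was the lowest of the list at 1.03 and 1.07. Kif13b had its peak, 2.95 and 2.62, at an internal start 5175 bp downstream of the annotated 5′ end, where no peak was found in either library. It was the 1 gene of both lists without a peak at its 5′ end.

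The genes of 1 motor complex did not share a height. Kif3a and Kif3b encode the paired heavy chains of the heterotrimeric kinesin that serves both axons and cilia, and Kif3c encodes an alternative partner of Kif3a. Kif3a was at 4.75 and 4.77, Kif3c at 3.16 and 3.69 and Kif3b at 2.47 and 2.31. The order Kif3a, Kif3c, Kif3b was the same in each library, with no overlap between the pairs of values.

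Kif5a, Kif5b and Kif5c encode the heavy chains of conventional kinesin, Kif5b in most cells and the other two mainly in neurons. Kif5c was at 3.82 and 3.31 and Kif5b at 3.43 and 3.40, a difference smaller than the spread of Kif5c. Kif5a was low in both libraries, 1.11 and 1.37, and its peaks lay at different places: chr10:127263030-127263233 in replicate 1 and chr10:127262496-127262723 in replicate 2. The shorter deposited peak list of each library, which is stricter, lacked Kif5a in at least 1 library.

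Some promoters held several open regions. Of regions shared by both libraries within the promoters, 5 of 11 axonal genes had 2 or more, against 2 of 10 mitotic genes and 25.9% of all genes, and no test was made of so few. A gene without a promoter peak cannot have 2, and every gene of both lists had a peak. In all, 5387 genes had 2 or more and 12657 had a peak in both libraries, so 5 of 11 is close to that share. The axonal genes had 18 such regions and the mitotic genes 13. Kif1b had further regions of 1.13 and 1.71 at 853 bp and of 0.717 and 0.517 at 60364 bp from its 5′ end. Kif5c had a further region 132431 bp inside the gene (0.752 and 0.759), and Kif21b had one 38914 bp inside (1.27 and 1.64). The 3 regions deep inside these genes lie at annotated alternative starts, and their heights were below those at the 5′ ends of the same genes in both libraries.

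Footprints covered a median of 33.7% of the tallest promoter peak at mitotic genes in each library and 22.5% and 25% at axonal genes, beside 23.6% and 26.4% over all genes. The mitotic medians include the peaks shared with a neighbouring gene. The ranges overlapped: Kif1b (44.6% and 50.7%) and Kif3a (40.8% and 41.7%) were among the most covered axonal promoters, and Kif2c ranged from 12.5% in replicate 1 to 42.0% in replicate 2. Footprints were deposited at 1 threshold with no strength of their own, and replicate 2 held more of them, 202779 against 156390. A footprint in the tallest peak of both libraries was found at 57 of 63 motor genes, against 57.5% of all genes. A gene without a peak cannot have one, so this contrast largely repeats that of the peaks. Among genes with a peak in both libraries it was found at 57 of 58 motor genes and at 11966 of 12657 genes in all, which are similar shares. Of the 58 genes with a peak, the exception was Kif7, with 3 footprints in replicate 1 and 0 in replicate 2. Its peak was 220 bp wide in replicate 1 and only 23 bp in replicate 2, which leaves little room for a footprint.

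**Figure D2:**
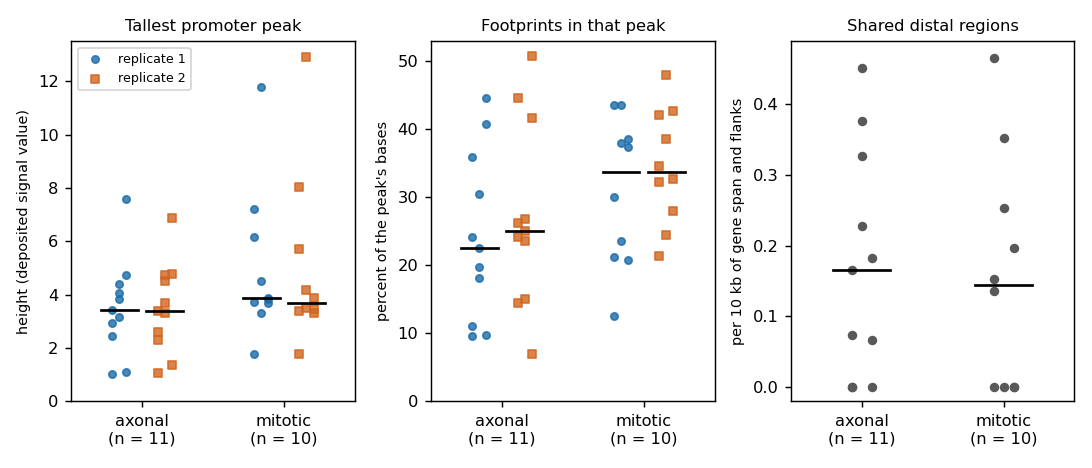
The left panel plots the height of the tallest promoter peak, the middle panel the percent of that peak covered by footprints, both per library (circles replicate 1, squares replicate 2), and the right panel the shared distal regions per 10 kb, 1 point per gene. Black bars are medians: 3.43 and 3.40 against 3.86 and 3.69 for height, 22.5% and 25% against 33.7% in each library for footprints, and 0.165 against 0.145 for distal regions, axonal before mitotic. The points of both lists overlap in every panel.

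Short sequence motifs known from promoters were searched in the 45 motor genes with an annotated start inside the tallest peak, over 250 bases before to 50 after that start, on both strands, beside 9887 such genes in all. The 8 mitotic genes among them exclude Kif11 and Kif22, and the 10 axonal genes exclude Kif1b. The cell cycle homology region, TTTGAA or TTCGAA, is the element of late cell cycle genes, and 5 of 8 mitotic promoters held it, 0 of 10 axonal ones, 2 of 18 of dynein and dynactin, and 12.6% of all. An E2F site, TTTGGCGC or TTTCGCGC, the element of genes of DNA synthesis and cell cycle entry, was in 2 of 8 mitotic promoters (Kif15 and Kif18a), 0 of 10 axonal and 1.83% of all. The ETS site CCGGAAG was in 5 of 8 mitotic, 1 of 10 axonal and 20.3% of all. Of the widespread elements, the NF-Y box CCAAT was in 4 of 8 mitotic and 4 of 10 axonal promoters, with 40.9% of all, and the GC box GGGCGG in 6 of 8 and 8 of 10, with 65.8% of all. With 8 and 10 promoters these shares are counts and carry no test, and a match is not a bound site.

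The 5 mitotic promoters with the cell cycle homology region are shown around the start site, since the place of the element can be read from them. Capitals mark the element, as written or as its reverse complement TTCAAA, and each stretch is read along the gene's strand from the RefSeq copy of GRCm38.p6, the same build as mm10.
Kif14, chr1:136466267-136466366, plus strand: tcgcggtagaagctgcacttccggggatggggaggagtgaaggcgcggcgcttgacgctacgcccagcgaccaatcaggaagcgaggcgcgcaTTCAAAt
Kif15, chr9:122950971-122951069, plus strand: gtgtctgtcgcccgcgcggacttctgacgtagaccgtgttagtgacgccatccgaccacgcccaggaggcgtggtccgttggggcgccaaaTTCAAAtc
Kif18b, chr11:102925101-102925200, minus strand: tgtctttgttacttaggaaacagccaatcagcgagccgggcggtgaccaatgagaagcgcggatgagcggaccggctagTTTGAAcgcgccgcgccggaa
Kif20b, chr19:34922285-34922384, plus strand: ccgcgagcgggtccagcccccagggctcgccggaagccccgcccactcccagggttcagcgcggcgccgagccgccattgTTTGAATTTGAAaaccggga
Kif23, chr9:61946751-61946850, minus strand: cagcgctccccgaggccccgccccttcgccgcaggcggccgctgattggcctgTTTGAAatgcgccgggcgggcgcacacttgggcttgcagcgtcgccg

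In all 5 the element lies close to the start, its first base at position 18 of Kif14, 17 of Kif15, 4 of Kif18b and 5 of Kif20b after the start and at position -23 of Kif23. Kif20b holds 2 copies in tandem, the second from position 11, and Kif15 has another copy outside the printed stretch, from position -199. In Kif15 the element follows directly on the reverse complement of an E2F site, which begins at position 9, without overlap, and both fell in footprints of both libraries. Kif15 was the only one of the 5 whose element lay in a footprint of both libraries. In the other 4 it lay in no footprint counted in either library, although each of these peaks held footprints elsewhere. Only footprints of the tallest peak were counted. The replicate 1 peak of Kif14, chr1:136466201-136466300, ends before the element, so for Kif14 only replicate 2 could show such a footprint. Over all 9887 promoters the element lay in a footprint of both libraries in 0.688%, and an E2F site did so in 0.607%. Kif24 and Kif26b, which are in neither list, also held the element near the start, as TTCGAA from position 14 and TTTGAA from position -9.

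**Figure D3:**
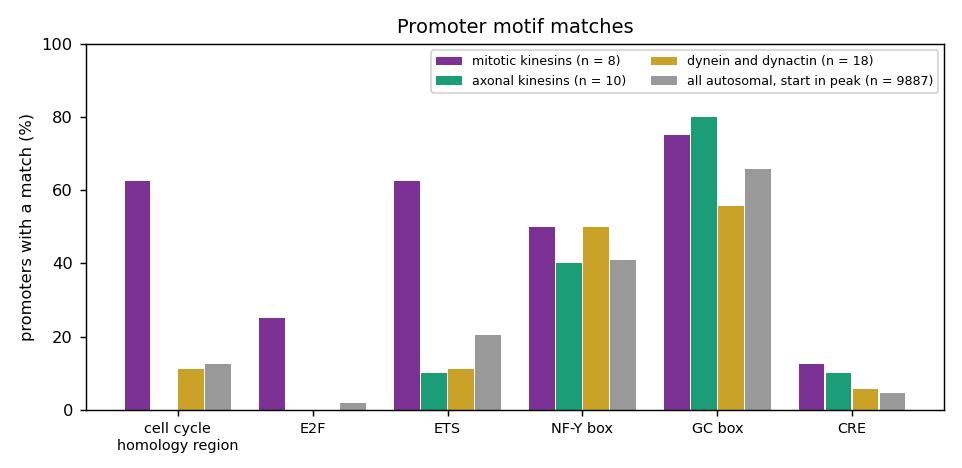
Bars give the percent of promoters with at least 1 match to each motif for mitotic kinesins (n = 8), axonal kinesins (n = 10), dynein and dynactin (n = 18) and all autosomal genes with a start in the peak (n = 9887). The cell cycle homology region stands at 62.5% for mitotic kinesins, 0% for axonal kinesins and 12.6% for all, and the GC box runs from 55.6% for dynein and dynactin to 80% for axonal kinesins.

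Footprinted bases of 3 axonal promoters are shown because they differ in what the shared footprints cover. Capitals mark bases in footprints of both libraries.
Kif1a, chr1:93101928-93102027, minus strand: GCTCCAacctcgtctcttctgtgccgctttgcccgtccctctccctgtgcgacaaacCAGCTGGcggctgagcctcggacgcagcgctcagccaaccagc
Kif3a, chr11:53567303-53567402, plus strand: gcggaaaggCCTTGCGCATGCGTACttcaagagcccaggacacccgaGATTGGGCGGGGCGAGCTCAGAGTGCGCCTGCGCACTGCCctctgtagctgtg
Kif5c, chr2:49619222-49619321, plus strand: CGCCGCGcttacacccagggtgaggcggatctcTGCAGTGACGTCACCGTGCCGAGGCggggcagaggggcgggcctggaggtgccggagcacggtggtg

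In Kif3a, 56 of the 100 bases were in footprints of both libraries, and the reverse complement of the NF-Y box, ATTGG, and a GC box that overlaps it lay inside them. Kif5c had 32 such bases, which included the cAMP response element TGACGTCA from position -38. That element was in 4 of the 45 motor promoters and 4.45% of all, and in footprints of both libraries in 3 of the 45 and 2.96% of all. Kif18a of the mitotic list (from position 31) and Dctn3 (from position -74) also held it in footprints of both libraries. Klc1 held it from position -14, in a footprint of replicate 2 only. Kif1a had 13 bases in footprints of both libraries, in a peak of 4.39 and 4.50.

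Kinesins of cilia and flagella had a promoter peak at 6 of 7 genes, with medians of 2.81 and 2.61. Among other genes within the promoter GC range of this list the share was 82.9% of 7358, so 6 of 7 is close to that share. Kif24, a kinesin of the centriole, was the tallest at 9.47 and 10.2 on a promoter shared with Nudt2, and Kif9, of motile flagella, followed at 7.44 and 6.61 beside Klhl18. Kif17, which also carries receptors in dendrites, was at 3.16 and 2.99, and Kif6 at 2.45 and 2.24. Kif27 was low at 0.728 and 0.751, and Kif19a, which limits cilium length, had no promoter peak. Of the markers of ependyma with motile cilia, 5 of 6 had a peak in both libraries, against 60.8% of all genes, and Dnah5 had none, with medians of 3.76 and 3.36. They ranged from Spag6 at 0.693 and 0.993 and Ccdc39 at 1.47 and 1.40 through Dnah9 at 3.76 and 3.36 to Foxj1 at 7.13 and 6.56 and Rsph1 at 13.9 and 16.2. The part of ciliated cells was not tested.

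Kif7, which works at the cilium tip in hedgehog signalling, had 1.22 in replicate 1 and 0.676 in replicate 2, and Kif26b had 0.621 and 0.967. Their log2 ratios of replicate 2 to replicate 1 were -0.85 and 0.64. Over 12009 promoters with overlapping tallest peaks, the median ratio was -0.01 and the range that leaves out 2.5% of promoters at each end ran from -0.53 to 0.49. Only these 2 of 54 motor genes lay outside. The peaks compared were of unlike width, 220 bp and 23 bp at Kif7 and 60 bp and 660 bp at Kif26b, and the part of width was not tested. Dync2li1 (-0.43) and Dynlt1b (-0.37) were the next farthest from the median, and both were inside the range.

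Of the other kinesins, 7 of 10 had a peak in both libraries, against 60.8% of all genes. Kif1bp was the tallest at 8.73 and 8.27, and Kif13a (3.67 and 3.52) and Kif1c (3.55 and 3.54) followed, in an order that changed between the libraries. The peak of Kif13a lay 643 bp upstream of the annotated 5′ end. Kif2a, which takes microtubules apart in growing axons, was among the lowest at 0.955 and 0.826. Its promoter is very rich in G and C (76%), and low broad regions covered it: chr13:107021481-107022140 and, at 0.884 and 0.809, chr13:107022261-107023140.

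The kinesin light chains, which join conventional kinesin to cargo, ranged from no peak at Klc3 to 9.24 and 9.82 at Klc4, whose promoter is shared with Mrpl2. Klc1, the main neuronal light chain, was low at 1.47 and 1.29. Klc2 had 2 shared regions of like height, 2.22 and 2.09 near the 5′ end and 2.19 and 2.73 at 960 bp, and a different one was the tallest in each library. Within conventional kinesin, Kif5a and Klc1 thus had low promoter peaks and Klc3 had none, and Kif5b, Kif5c and Klc2 stood above them in each library. The peak at Klc4 was also taller, but it cannot be given to Klc4 or to Mrpl2.

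Cytoplasmic dynein 1 had a peak at 5 of 5 genes, with medians of 2.94 and 2.55. The share among other genes within its promoter GC range was 80.2% of 9629. The light intermediate chain Dync1li1 was the tallest at 7.80 and 6.71, and its relative Dync1li2 was at 2.28 and 2.40. The intermediate chain Dync1i2, which is made in most cells, was at 5.29 and 5.04. Dync1h1, the motor heavy chain, was at 2.94 and 2.55, below the median of all genes.

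Dync1i1, the neuronal intermediate chain, had a low peak at the 5′ end, 1.05 and 1.10, and another at an alternative start 280261 bp inside the gene, chr6:6005721-6006080, of 1.5 and 1.09. The inner site was the taller in replicate 1 and the sites were level in replicate 2. Paired genes of dynein 1 thus differed in the same direction in both libraries: Dync1i2 stood above Dync1i1, and Dync1li1 above Dync1li2.

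Dynein 2 moves cargo back along cilia. Its heavy chain gene Dync2h1 had the tallest peak, 5.21 and 4.50, at an internal start 7396 bp from the 5′ end, chr9:7176941-7177160, and 3.71 and 3.75 at the 5′ end itself. Dync2li1 was at 3.71 and 2.75.

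Dynactin had a peak at 6 of 6 genes, and its medians of 5.61 and 5.69 were the highest of the role lists in each library. The share with a peak among other genes within its promoter GC range was 69.2% of 7612. Dctn4 was at 7.99 and 7.80, Dctn5 at 7.2 and 8.48 on a promoter shared with Palb2, Dctn3 at 6.03 and 4.97, and Dctn2 at 5.19 and 6.41. Dctn6 was the lowest with an overlapping peak, 3.43 and 3.58. All 6 were above the median of all genes in each library.

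Dctn1, the subunit that holds dynactin to the microtubule, had 4 shared regions at annotated starts. The region 210 bp upstream of the 5′ end was at 3.21 and 3.73, the one 20140 bp inside was at 3.32 and 2.83, and those at 13666 bp and 31610 bp were at 1.15 and 1.01 and at 1.04 and 1.58. The outer and the 20140 bp region changed rank between the libraries.

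The dynein light chains had a peak at 8 of 8 genes, with medians of 5.49 and 5.14. The share among other genes within their promoter GC range was 76.5% of 13112. Dynll1, a hub protein that also serves outside dynein, was at 8.83 and 11.1 (9.96 ± 1.61, SD, n = 2), whereas Dynll2 was at 2.25 and 2.28. Dynlrb1 was at 7.87 and 8.01 and Dynlrb2, known from ciliated tissue, at 4.19 and 3.75. In each of these 2 pairs the first gene stood above its relative in both libraries.

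The Dynlt1 light chains are encoded by 4 neighbouring copies on chromosome 17, and their heights ranged more widely than those of any role list without them. Dynlt1b was at 34.6 and 26.8 (30.7 ± 5.51, SD, n = 2), Dynlt1a at 6.79 and 6.52 (6.66 ± 0.193), Dynlt1f at 1.98 and 1.99 (1.98 ± 0.00186) and Dynlt1c at 0.931 and 1.13 (1.03 ± 0.143). The order was the same in both libraries, with no overlap. These 4 were the only motor genes whose tallest promoter peak had a copy elsewhere in the genome at 90% identity or more over at least 90% of the peak, and the copies matched each other at 93.4% to 98.9%. How reads that fit several copies were placed is not given in the sources used here, so the heights of single copies are uncertain. Its part in their differences was not tested. Footprints covered 61.5% and 55.5% of the tallest promoter peak of Dynlt1b, 39.3% and 56.1% at Dynlt1a, 21.1% and 18.6% at Dynlt1f, and 11.8% and 11.1% at Dynlt1c. The taller pair of copies was thus the more covered pair in both libraries.

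Distal regions were regions shared by both libraries, farther than 1 kb from every start of a protein-coding gene, within the gene or 10 kb of it. At least 1 was found at 40 of the 63 motor genes (63.5%), against 47.4% of all genes. There were 100 in all, 70 of them inside the gene and 60 of those in no exon of it. Their median heights were 0.961 and 0.867, lower than at promoters, and 72 held a footprint in both libraries. The share with a footprint was not computed over the distal regions of all genes, so 72 is a description only. With the shorter, stricter peak lists, there were 39 regions at 25 genes, and with flanks of 50 kb there were 208. Motor genes had a median span of 35.5 kb against 17.6 kb over all genes, and the part of length in the share with a distal region was not tested.

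The 11 axonal genes had 19 distal regions at 8 genes, a median of 0.165 per 10 kb, and the 10 mitotic genes had 9 at 6 genes, a median of 0.145. This order does not hold for the narrower lists (without Kif13b, Kif21a and Kif21b, and without Kif20b and Kif22), whose medians were 0.125 and 0.175, and both medians were 0 with the shorter peak lists. A distal region was found at 52.4% of other genes within the promoter GC range of the axonal list and at 51.8% within that of the mitotic list. The median span was 46.6 kb for the axonal and 38.2 kb for the mitotic genes, and the part of length was not tested. Kif21b (0.450 per 10 kb) and Kif1a (0.376) were the densest axonal genes, and Kif2c (0.465) and Kif14 (0.352) the densest mitotic ones. Kif3b, Kif5a and Kif5b had none, nor had Kif15, Kif18a, Kif20a and Kif22. In Kif5c, 3 of 4 regions lay between 108098 and 122714 bp inside the gene. The 4 of Kif1a included 3 in no exon, between 20815 and 30155 bp inside it, at 0.851 to 1.39.

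Kif6 had the most distal regions, 10 over a span of 295 kb, followed by Kif16b with 8, and by Dync1i1 and Kif19a with 6 each. Per 10 kb, Kif19a led with 1.32, before Dynlt1b (0.764), Kif12 (0.755) and Dync1li2 (0.661). Kif19a and Kif12 had no promoter peak. The regions of Kif19a were 0.669 to 1.40 high, and the middle of 3 of the 6 lay in an exon of Kif19a and 2 lay in the neighbouring Btbd17. Kif28, also without a promoter peak, had 3 regions, the tallest at 1.90 and 2.00.

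**Figure D4:**
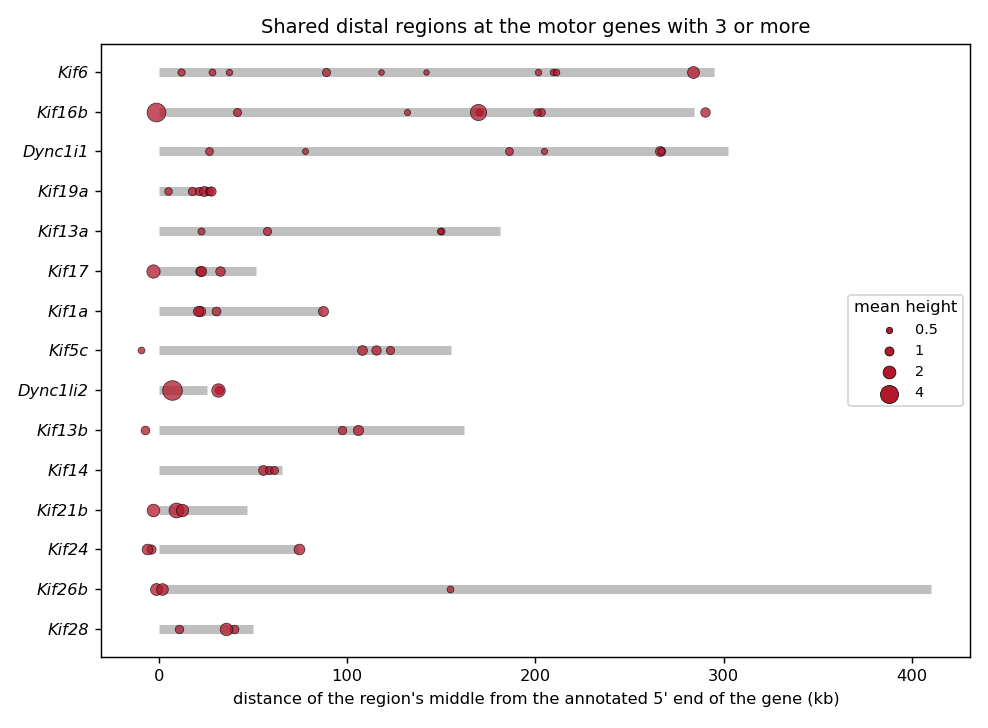
Each row is 1 of the 15 motor genes with 3 or more shared distal regions. The grey bar is the annotated gene from its 5′ end at 0 kb, each point is a region placed by its distance from that end in kb, and the area of the point is proportional to the mean height of both libraries. Kif6 shows 10 small regions spread along the gene, and the largest points belong to Dync1li2 and Kif16b.

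The share of tall regions was not computed over the distal regions of all genes. Among those of the motor genes, a mean height of 2 or more was reached by 9 of the 100 regions. Of these, Dync1li2 had one in an intron (chr8:104436101-104436340, 5.06 and 4.39). Kif16b, a motor of early endosomes, had one 1609 bp upstream (4.33 and 4.34), its nearer edge 96 bp from the start of the antisense gene Kif16bos, and one in an intron (3.59 and 2.90). Kif21b had one 9061 bp inside the gene (2.88 and 2.57). The tallest lay 9772 bp upstream of Dync1h1, at 14.6 and 13.7 (14.2 ± 0.617, SD, n = 2), above the peak at the Dync1h1 promoter itself in each library. It overlaps an exon of the long non-coding RNA gene B930059L03Rik and its nearer edge is 1049 bp from the start of that gene, just outside a window of 1 kb, and nothing here ties it to Dync1h1 beyond its place.

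Its sequence is shown because it is the tallest distal region of the set, with capitals for bases in footprints of both libraries.
Dync1h1, chr12:110591561-110591800, plus strand: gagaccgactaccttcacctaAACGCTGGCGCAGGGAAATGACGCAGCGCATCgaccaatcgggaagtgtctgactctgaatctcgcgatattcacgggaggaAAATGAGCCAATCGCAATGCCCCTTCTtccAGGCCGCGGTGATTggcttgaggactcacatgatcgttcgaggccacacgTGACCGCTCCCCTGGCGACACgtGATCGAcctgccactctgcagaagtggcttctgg

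Footprints of both libraries covered 100 of its 240 bases. It holds 3 NF-Y boxes, CCAAT on either strand, and no GC box.

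Partners of the motors that the naming rule leaves out were read from a list of 30 genes. A promoter peak in both libraries was found at 29, against 60.8% of all genes, with medians of 4.75 and 4.50. Kifc1, a minus-end kinesin of the spindle, was the tallest at 14.5 and 16.8 (15.7 ± 1.61, SD, n = 2), and Ndel1, a regulator of dynein, followed at 11.2 and 11.1 (11.1 ± 0.117). Its relative Nde1 at 1.31 and 1.40 (1.36 ± 0.0619) and Dynlt3 at 1.56 and 1.18 (1.37 ± 0.269) had the lowest means, within the spread of Cenpe (1.38 ± 0.118) and Nin (1.42 ± 0.391), so these 4 are not ordered. Mapk8ip1, a scaffold that links kinesin to cargo, had a peak in replicate 2 only, at 0.942. The actin-related proteins of dynactin's short filament, Actr1a (10.6 and 9.80) and Actr1b (8.37 and 7.95), were taller than any Dctn gene save for Dctn5, whose 8.48 in replicate 2 exceeded Actr1b. Kifap3, the third subunit of the heterotrimeric kinesin, was at 9 and 8.85, above Kif3a, Kif3b and Kif3c.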

How the data were processed

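DNase-seq of 2 libraries was read from the authors' deposited files, which hold each library separately. Per the labels, the assembly is mm10. Peak height is the authors' signal value on a scale that is not stated. A deposited track lists bases with their false discovery rate, a q-value, and in the deposited footprints the q-value column holds the constant 0.01. Aligner and callers are not given in the sources used here, nor is read depth, so no counting interval is given. The longer of 2 deposited peak lists was used.

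Peaks and footprints were joined to GENCODE M21 with Python 3.11.15 and bedtools 2.31.1, with an overlap of at least 1 bp. GC content was taken over 500 bp on both sides of the 5′ end. Near copies were sought with blastn 2.17.0 in the RefSeq GRCm38.p6 genome, which also gave the sequences. Figures were drawn with matplotlib 3.10.9.

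The members, role lists, markers, motifs and partner list were chosen with earlier results of these data known. Named genes were all mitotic and axonal members, per other role list the 2 tallest and 2 lowest by mean height, genes lacking a peak, the 6 genes with most distal regions and the 4 densest, the 4 with the most unlike libraries, and of the partners the 2 tallest, 2 lowest and any without a peak in either or both libraries; other genes complete a group. Alternatives were the shorter peak list, other windows, flanks and overlaps, narrower lists and each library alone. Some marker genes and sequences are not reported here.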

Additional observations from a re-analysis of the deposited data

How the results depend on the processing

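Of 64 values recomputed under alternatives for 10 results, 42 stayed within 1.5 times the count or within the spread between libraries. A promoter peak in both libraries was found at 54 to 60 motor genes and a footprint at 56 to 59. The shorter peak list lost Dynlt1c, Kif27, Kif5a and Kif7, a window of 2000 bp gained Kif19a and Klc3, and counting only the 5′ end lost Kif13b. The median mitotic height of 3.74 became 3.58 with a window of 500 bp and with the 5′ end only, and the axonal median of 3.43 became 3.50 with the shorter list, the 5′ end only and the narrow lists. With 1 library left out, the mitotic median ranged from 3.69 to 3.86 and the axonal from 3.40 to 3.43. The mitotic median was above the axonal one under each of these alternatives, but the gap was small. With the 5′ end only, the medians were 3.58 and 3.50, closer than the SD of 0.122 of the mitotic median between libraries. Kif15, Kif18a and Kif20a, on promoters shared with a neighbour, were kept in every alternative.

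Distal results moved more. The shorter list left 25 genes with a distal region and 39 regions, and both median densities fell to 0. Flanks of 50 kb gave 208 regions, with densities of 0.191 for axonal and 0.134 for mitotic genes. Excluding starts of all annotated genes gave 0.110 and 0.0681, and the narrow lists gave 0.125 and 0.175, which reverses their order. With 1 library left out the axonal density was 0.183 both times and the mitotic 0.166 to 0.175. The causes were not tested. No paired analysis was possible because there was 1 group. With read depth not used here, a promoter without a peak is not shown to be closed.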
